A study of Mus musculus with 9 samples.

Results

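The 39 Hox cluster genes of the mouse were followed in RNA-seq libraries of Lewis lung carcinoma (LLC) cells, a mouse lung tumor line, with and without an intact Cd47 gene. Members were the protein-coding rows of the deposited table whose symbol is Hox with a cluster letter from a to d and a number, which gave 39 of 21502 protein-coding rows and of 50813 rows in all. The Hoxa cluster holds 11 of them (chromosome 6, minus strand), the Hoxb cluster 10 (chr11:96085142-96259082 in GRCm39), the Hoxc cluster 9 (chr15:102829538-102945278) and the Hoxd cluster 9 (chr2:74498654-74595486), the last 3 clusters on the plus strand. Of the 9 libraries, 3 came from wild-type (WT) cells, 3 from the CD47 knockout (KO) clone E3 and 3 from the CD47 KO clone E5. All 3 lines derive from LLC cells that carry luciferase and were grown in DMEM with fetal bovine serum, with no treatment. The KO lines were made by delivering Cas9 ribonucleoproteins aimed at Cd47, and each is the progeny of a single cell, so each KO genotype is represented by 1 clone and the effect of losing Cd47 and the differences between single-cell clones cannot be told apart. The replicates of a line were independent cultures by the study's methods, and every p-value below measures the spread between such cultures.

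Hox genes encode homeodomain transcription factors that give cells their position along the head-to-tail axis of the embryo and, at the end of the clusters, along the limb and genital tract. Within a cluster the genes lie in the order of their paralog group number, and genes with low numbers are switched on earlier and further toward the head than genes with high numbers. Adult cells and the tumors that arise from them often keep the Hox pattern of their place of origin, under repression by Polycomb complexes and activation by trithorax complexes. HOX proteins bind DNA together with cofactors of the TALE family (PBX, MEIS and PREP). Some members, Hoxa5 and Hoxb5 above all, are known for roles in the branching and maturation of the lung.

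The sequences upstream of Hoxa10 and Hoxd10 are shown because each of these genes had the smallest adjusted p of its cluster in the comparison of the KO clones with each other. They were read from GRCm39, 5′ to 3′ on the strand of the gene and ending at, or for Hoxa10 21 bases before, the start of the annotated main transcript, with the CpG dinucleotides in capitals.
Hoxa10 (chr6:52211940-52212119, minus strand): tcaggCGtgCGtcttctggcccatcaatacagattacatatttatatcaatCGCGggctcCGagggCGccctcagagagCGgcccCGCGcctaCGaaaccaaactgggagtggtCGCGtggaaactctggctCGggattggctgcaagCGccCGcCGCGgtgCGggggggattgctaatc
Hoxd10 (chr2:74522030-74522229, plus strand): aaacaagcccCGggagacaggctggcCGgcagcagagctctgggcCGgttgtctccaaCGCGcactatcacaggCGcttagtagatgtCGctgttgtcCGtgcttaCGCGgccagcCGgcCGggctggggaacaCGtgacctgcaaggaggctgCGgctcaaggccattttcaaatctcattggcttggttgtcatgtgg
CpG dinucleotides numbered 18 in the 180 bases shown for Hoxa10 (19 in its full window of 200 bases) and 14 in the 200 bases shown for Hoxd10. Over the windows of 200 bases before the start of all 39 members the median was 10 CpG dinucleotides, against 7 over the windows of 21757 protein-coding genes. The CCAAT motif, searched on both strands, was in 59.0% of the Hox windows and in 32.3% of all windows. TGATNNAT, the core of sites bound jointly by PBX and HOX proteins, was in 8 Hox windows (20.5%, against 5.23% of all windows), among them those of Hoxb8 and Hoxb7. TATAAA was in 10.3% of the Hox windows and 9.57% of all windows. These matches describe letters in the windows, and no binding or chromatin was measured.

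Total counts per library ranged from 44257404 to 55095219. Cd47, the gene targeted in the clones, had 187, 179 and 182 CPM in WT, 47.4, 36.7 and 49.6 CPM in KO E3 and 15.5, 18.6 and 18.1 CPM in KO E5, so its transcript was lower in every KO library and still detected (log2 fold change -2.03 ± 0.13 SE, adjusted p = 4.9e-06, and log2 fold change -3.39 ± 0.14 SE, adjusted p = 1.07e-07). CPM are counts per 1000000 counts of the tested genes in the library, scaled with edgeR's TMM factors. The third KO E3 library stood apart from the other libraries of its line, since its counts differed from those of its sister libraries by chi-squares of 189 and 229 per degree of freedom, where the other pairs within a line gave 4.81 to 38.8. For part of the results in KO E3, values without this library are therefore given as well. Of 9 lung epithelial markers, 7 in WT, 7 in KO E3 and 6 in KO E5 were at the detection limit, Nkx2-1 and the surfactant genes in every line, and the summed level of the list, carried by Krt8 and Krt18, was 450 to 458 CPM in WT, 127 to 198 CPM in KO E3 and 896 to 957 CPM in KO E5. The 6 mesenchymal markers were all detected (5961 to 8460 CPM in sum), while the 5 leukocyte markers summed to at most 0.486 CPM and the 4 endothelial markers to at most 0.253 CPM. The defining lung epithelial markers were thus not detectable at this depth in a line labelled as a lung tumor, and the part of the keratin difference in the Hox results was not tested. In bulk RNA, fewer cells of a type and less RNA per cell cannot be told apart.

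The first question was which Hox genes the cells used at all. A gene was taken as on in a line at 0.5 CPM or more in all 3 libraries, as at the detection limit at 3 counts or fewer in each library, and as low in between. By this description 23 members were on in WT, 23 in KO E3 and 22 in KO E5, and 22 were on in every line. They included Hoxa2 to Hoxa7, Hoxa10 and Hoxa11, Hoxb2 to Hoxb9, and Hoxd3, Hoxd4 and Hoxd8 to Hoxd10. Only Hoxc6 was on in some lines and not in all: it was on in WT and KO E3 and low in KO E5. At the detection limit in every line were 10 members, namely Hoxb1, Hoxd1, Hoxd11, Hoxd12, Hoxd13 and Hoxc9 to Hoxc13, of which 6 had no count in any library. A count of 0 allows up to 0.0555 to 0.066 CPM, depending on the library, and this limit covers counting error only. The Hoxc cluster was the silent one, with at most 1 of its 9 members on in any line, where 9 of 11 Hoxa, 8 of 10 Hoxb and 5 of 9 Hoxd members were on in all lines.

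**Figure D1:**
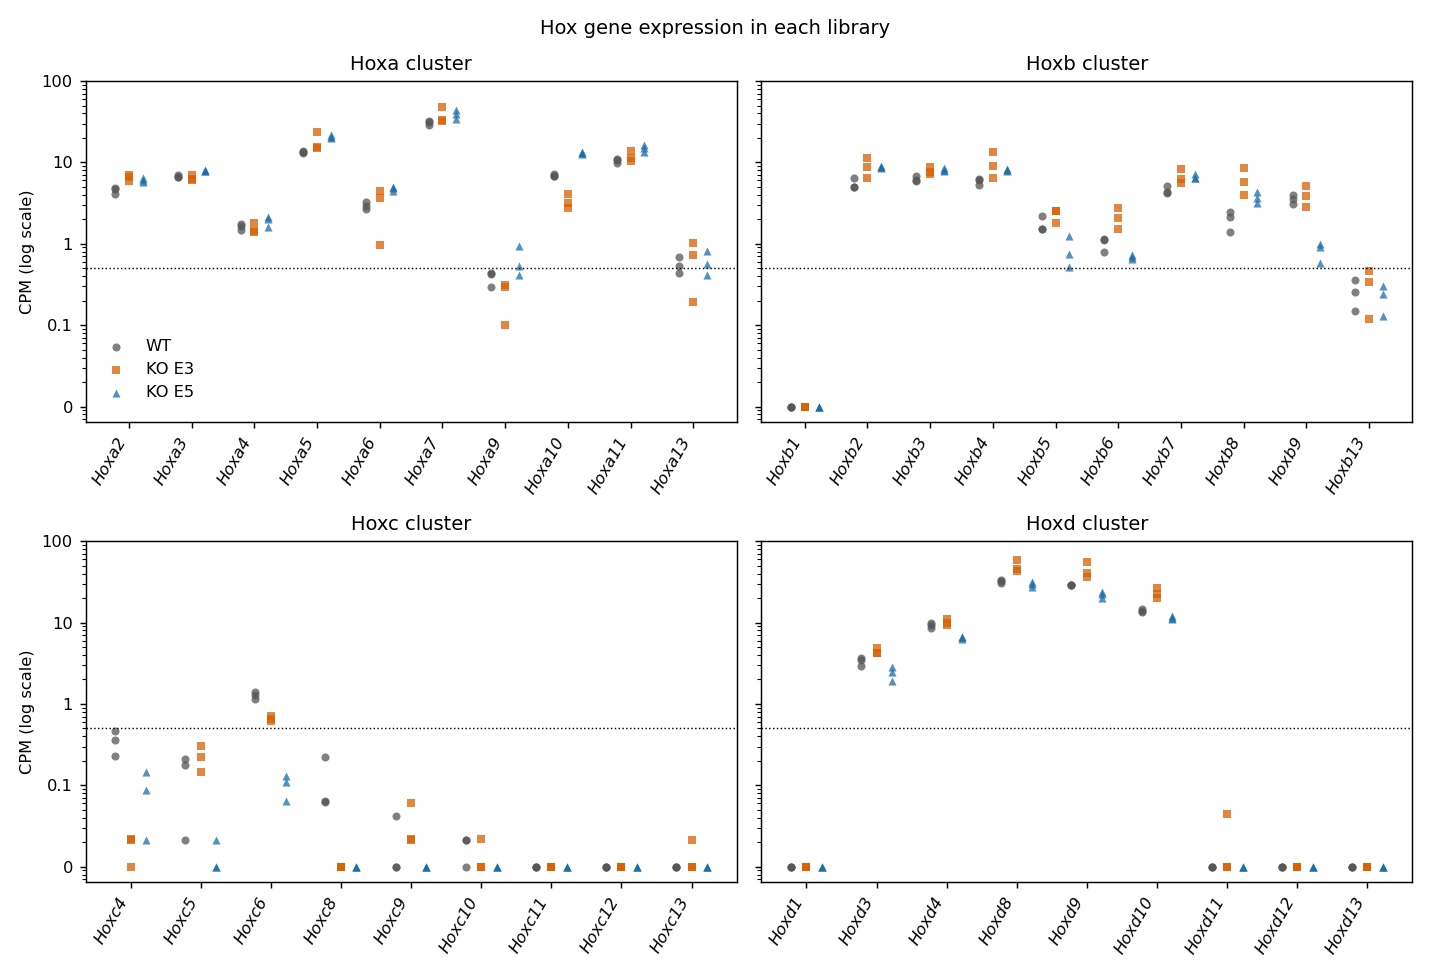
Expression of 38 Hox genes in each of the 9 libraries, in CPM on a log axis, by cluster and in the order of the paralog groups. Points are single libraries (circles WT, squares KO E3, triangles KO E5), values of 0 are drawn at the bottom of the axis, and the dotted line marks 0.5 CPM. The Hoxa, Hoxb and Hoxd genes that were on lie mostly between 1 and 100 CPM in all lines, while most Hoxc genes and the 5′ end of Hoxd lie at or near 0.

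Per kilobase of exon, the highest mean levels in WT were those of Hoxd9 (13.2 ± 0.119 CPM per kilobase, SD, n = 3), Hoxd8 (10.99 ± 0.489) and Hoxa7 (10.7 ± 0.661), of which the last 2 differed by less than their SDs. They were followed by Hoxd10 (7.55 ± 0.380), Hoxa5 (7.21 ± 0.204) and Hoxa11 (4.58 ± 0.258). In KO E5 the order by mean was Hoxa7 (13.6 ± 1.71), Hoxa5 (11.02 ± 0.584), Hoxd9 (10.2 ± 0.846) and Hoxd8 (10.1 ± 0.664), the last 2 of them within their SDs. In KO E3 Hoxd9 (19.98 ± 4.49) and Hoxd8 (16.7 ± 2.77) again had the highest means, with SDs that overlap. A few genes of the middle of the Hoxa and Hoxd clusters therefore held most of the Hox transcripts in every line, and which of these clusters led differed between the clones.

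The summed level of all 39 members was 202, 202 and 204 CPM in WT, 260, 235 and 324 CPM in KO E3 and 230, 223 and 221 CPM in KO E5. All KO libraries lay above all WT libraries, and the third KO E3 library was the highest. Of the Hox counts, the Hoxa cluster took 40.5% ± 0.423 in WT (mean ± SD, n = 3), 34.4% ± 0.689 in KO E3 and 50.7% ± 2.22 in KO E5. The Hoxd cluster took 43.4% ± 0.460 in WT, 47.9% ± 0.703 in KO E3 and 32.3% ± 1.27 in KO E5. For both clusters the 3 lines did not overlap, so the clones lay on opposite sides of WT. The Hoxb share was 15.2% ± 0.601, 17.4% ± 1.38 and 16.9% ± 1.13 in the same order, and all 3 lines overlapped. The Hoxc share fell in steps without overlap, from 0.943% ± 0.0833 in WT to 0.354% ± 0.0459 in KO E3 and 0.0866% ± 0.0265 in KO E5. Unlike its summed CPM, the shares of the third KO E3 library (34.3% Hoxa and 47.5% Hoxd) were close to those of its sister libraries (33.7% and 35.1% Hoxa, 47.5% and 48.7% Hoxd).

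**Figure D2:**
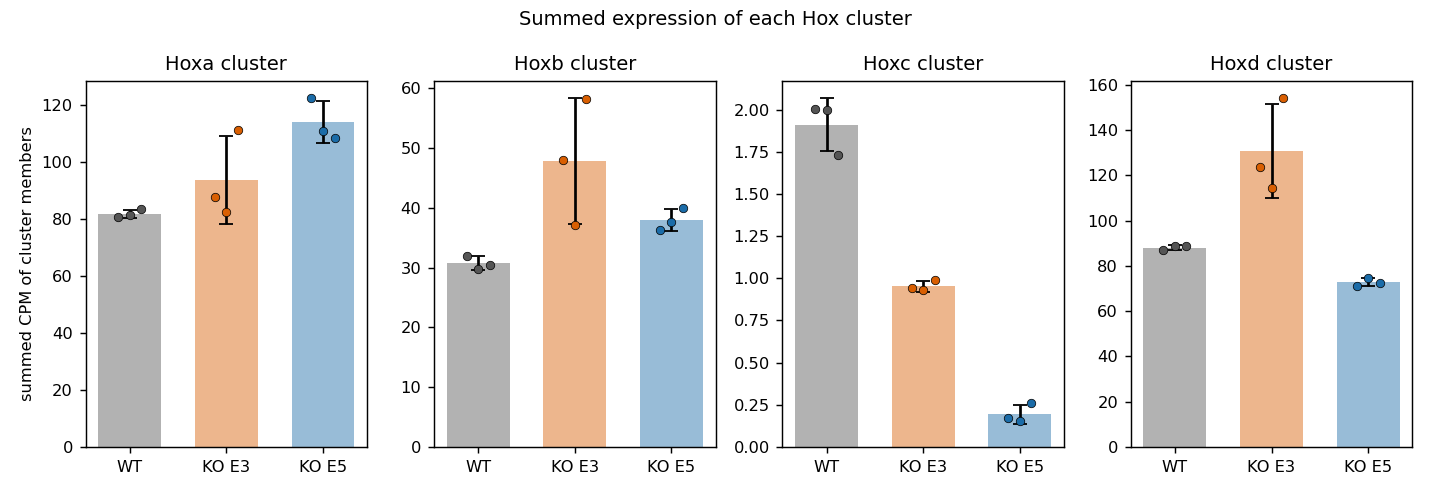
Summed CPM of the members of each Hox cluster, with a separate linear axis starting at 0 for each cluster. Bars are means of 3 libraries, whiskers are SDs and points are single libraries. The Hoxd sum is highest in KO E3 (114 to 154 CPM) and lowest in KO E5 (71.1 to 74.5 CPM), and the Hoxc sum falls from 1.73 to 2.00 CPM in WT to 0.152 to 0.259 CPM in KO E5.

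Each clone was next compared with WT, and the clones with each other, in 1 edgeR quasi-likelihood model of all 9 libraries, with adjusted p-values over 14593 genes. Of the 39 members, 27 passed the filter on low counts and were tested: all 11 Hoxa genes, 9 Hoxb genes, Hoxc4 and Hoxc6, and 5 Hoxd genes. The other 12, among them Hoxc5 and Hoxc8, are given as counts alone. A gene was called when its adjusted p was under 0.05 and it moved by more than 1 on the log2 scale in either direction. The 3 comparisons share libraries, so they are not independent of each other, and their values stand side by side below.

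Against WT, clone E3 had 2 members called higher (Hoxb8 and Hoxb6) and 2 called lower (Hoxa10 and Hoxc4), or 7.41% of the tested members in each direction, where 5.43% of all tested genes were called higher and 4.39% lower. With the adjusted p alone, 9 members were higher (Hoxa2, Hoxb2, Hoxb4, Hoxb6, Hoxb7, Hoxb8, Hoxd8, Hoxd9 and Hoxd10) and 3 were lower (Hoxa10, Hoxc4 and Hoxc6), which is 33.3% and 11.1% of the tested members against a background of 15.7% and 14.7%. The median log2 fold change of the tested members was 0.33, against 0.01 over all tested genes. Without the third KO E3 library 3 members were called instead of 4, since Hoxb6 no longer passed the fold threshold, and 11 higher and 3 lower members passed the adjusted p alone.

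Clone E5 had no member called higher than WT and 4 called lower (Hoxb9, Hoxb5, Hoxc6 and Hoxc4), 14.8% of the tested members, where the background was 2.69% called higher and 5.52% lower. With the adjusted p alone, 6 members were higher (Hoxa2, Hoxa5, Hoxa10, Hoxa11, Hoxb2 and Hoxb7) and 5 lower (the 4 called and Hoxd4), or 22.2% and 18.5% against 8.96% and 11.7% of all tested genes. At an unadjusted p under 0.05, 8 members were higher and 8 lower, against 15.3% and 18.3% of all tested genes. DESeq2 also called no member higher and 6 lower, the 4 named and Hoxc5 and Hoxc8. Over all genes DESeq2 called 1.59% higher and 3.47% lower of 26158 genes with a fold change. The median log2 fold change of the members was 0.24, against -0.0023 over all tested genes. These counts were sensitive to single libraries: leaving out WT replicate 1, WT replicate 2, KO E5 replicate 1 or KO E5 replicate 2 each left 2 called members, Hoxb9 and Hoxc6, and the number higher by the adjusted p alone ranged from 1 to 11 over the 9 libraries left out in turn. Without the third KO E3 library, which is not part of this comparison, 11 members were higher and 8 lower by the adjusted p. The fit of the 2 lines alone gave 12 and 8. Passing in both of these fits but not with all libraries were Hoxa6, Hoxa7, Hoxb3, Hoxb4 and Hoxb8 as higher. Hoxd3, Hoxd9 and Hoxd10 did so as lower.

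Between the clones, 2 members were called higher in E5 than in E3 (Hoxa10 and Hoxa9) and 5 lower (Hoxb9, Hoxb6, Hoxb5, Hoxc6 and Hoxd10), or 7.41% and 18.5% of the tested members, against 3.49% and 7.52% of all tested genes. By the adjusted p alone, 2 were higher and 9 lower, the further ones being Hoxd3, Hoxd4, Hoxd8 and Hoxd9, which is 7.41% and 33.3% against 14.7% and 17.2%. All 5 tested Hoxd genes were thus lower in E5 than in E3. Without the third KO E3 library, 2 members were called higher and 4 lower, with Hoxd10 short of the fold threshold.

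**Figure D3:**
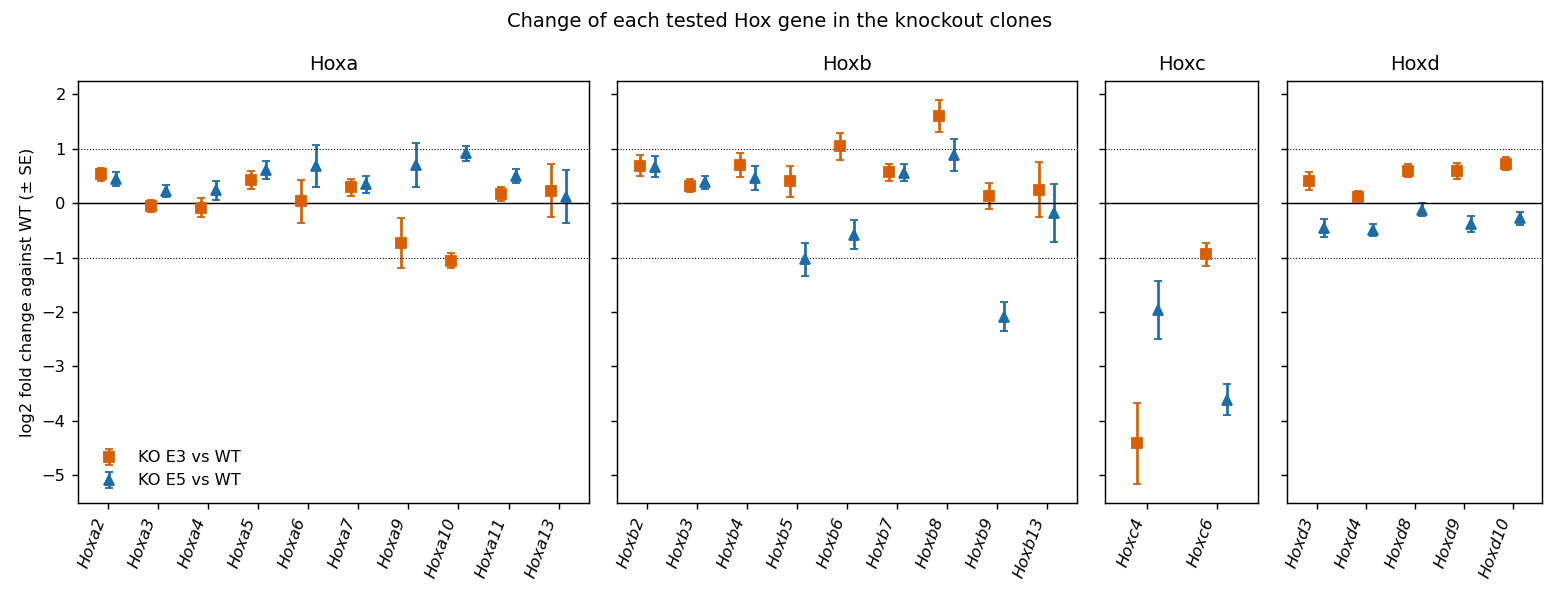
Log2 fold change against WT of 26 tested Hox genes, by cluster and paralog group, with standard errors from the edgeR fit (squares KO E3, triangles KO E5). Dotted lines mark a log2 fold change of 1 in either direction. In the Hoxd cluster all 5 genes lie above 0 in E3 and below 0 in E5, Hoxa10 lies at -1.05 in E3 and 0.92 in E5, and Hoxc4 and Hoxc6 lie below 0 in both clones.

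Within the Hoxa cluster the largest differences were at Hoxa10 (ENSMUSG00000000938.12, chr6:52208177-52217834), which patterns the uterus and the limb. Its level was 7.11, 6.73 and 6.9 CPM in WT, 3.16, 2.77 and 4.07 CPM in KO E3 and 12.8, 12.99 and 13.4 CPM in KO E5. The libraries of the 3 lines did not overlap, with KO E3 lowest and KO E5 highest. Relative to WT it fell in clone E3 (log2 fold change -1.05 ± 0.14 SE, adjusted p = 0.000466) and was higher by the adjusted p, though not called, in clone E5 (log2 fold change 0.92 ± 0.14 SE, adjusted p = 0.000975). The difference between the clones was the largest of the cluster (log2 fold change 1.97 ± 0.14 SE, adjusted p = 4.86e-06). In E3 the call against WT was lost without KO E3 replicate 2, with a log2 fold change of -0.94 that kept an adjusted p of 0.00107.

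Hoxa9 (ENSMUSG00000038227.16, chr6:52200080-52208069), next to Hoxa10 and known as a driver of leukemia, was low in all 3 lines, with 21, 21 and 14 counts in WT, 5, 14 and 14 counts in KO E3 and 44, 19 and 29 counts in KO E5. It was called higher in E5 than in E3 (log2 fold change 1.43 ± 0.44 SE, adjusted p = 0.0311), where the libraries did not overlap, while neither clone differed from WT beyond the threshold (log2 fold change -0.73 ± 0.46 SE, adjusted p = 0.267 and log2 fold change 0.70 ± 0.41 SE, adjusted p = 0.265). This call held in 9 of 15 alternatives. It was lost when KO E3 replicate 1, KO E5 replicate 1 or KO E5 replicate 3 was left out, with adjusted p-values of 0.0886, 0.125 and 0.054. It was also lost in the fit of the 2 clones alone (adjusted p = 0.0678) and with the replicate block (adjusted p = 0.0664). Hoxa9 was not tested when every library had to hold 10 counts. Hoxa13, the last gene of the cluster, which acts in the hand, foot and urogenital tract, was also low, at 0.190 to 1.02 CPM over all libraries, and its lines overlapped.

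Genes toward the other end of the cluster were on in every library. Hoxa2, which patterns the second pharyngeal arch, had 4.67, 4.06 and 4.79 CPM in WT, 6.92, 5.94 and 6.66 CPM in KO E3 and 6.49, 5.81 and 6.05 CPM in KO E5. Its KO libraries all lay above the WT libraries, and both clones passed the adjusted p with small changes (log2 fold change 0.53 ± 0.13 SE, adjusted p = 0.00966 and log2 fold change 0.44 ± 0.13 SE, adjusted p = 0.0317). For Hoxa3, needed for the thymus and parathyroid, the levels were 6.59, 6.6 and 7.03 CPM in WT, 7.04, 6.04 and 6.33 CPM in KO E3 and 7.89, 8.0 and 7.86 CPM in KO E5. Hoxa4 was the lowest of the genes on in this cluster, with 1.64, 1.49 and 1.73 CPM in WT, 1.78, 1.42 and 1.41 CPM in KO E3 and 2.11, 1.63 and 2.0 CPM in KO E5. With all 9 libraries in the fit, neither Hoxa3 nor Hoxa4 passed the adjusted p in any of the 3 comparisons.

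Hoxa5, the member best known for its role in the lung, had 13.96, 13.4 and 13.2 CPM in WT, 15.6, 15.2 and 23.9 CPM in KO E3 and 21.9, 20.5 and 19.7 CPM in KO E5. All KO libraries lay above all WT libraries, and the change passed the threshold on the adjusted p in clone E5 (log2 fold change 0.61 ± 0.16 SE, adjusted p = 0.0231) and not in clone E3 (log2 fold change 0.43 ± 0.16 SE, adjusted p = 0.0707), where the third library was the highest. The difference between the clones did not pass with all libraries (log2 fold change 0.18 ± 0.16 SE, adjusted p = 0.414) and did without that library (log2 fold change 0.44, adjusted p = 0.00125). Hoxa6 had 2.92, 3.3 and 2.64 CPM in WT, 4.4, 3.7 and 0.967 CPM in KO E3 and 4.93, 4.47 and 4.83 CPM in KO E5. The third KO E3 library had 44 counts of Hoxa6 where its sister libraries had 220 and 175, and without it Hoxa6 was higher in clone E3 than in WT (log2 fold change 0.45, adjusted p = 0.0276, against log2 fold change 0.037 ± 0.40 SE, adjusted p = 0.959 with it). In clone E5 Hoxa6 did not pass against WT with all libraries (log2 fold change 0.68 ± 0.39 SE, adjusted p = 0.255) and passed without that library. Hoxa7 was the most abundant Hoxa gene, with 28.6, 31.8 and 32.00 CPM in WT, 32.1, 33.01 and 47.9 CPM in KO E3 and 44.1, 39.4 and 34.3 CPM in KO E5. The KO libraries lay above the WT libraries, but neither change passed the threshold with all libraries (log2 fold change 0.29 ± 0.16 SE, adjusted p = 0.198 and log2 fold change 0.35 ± 0.16 SE, adjusted p = 0.152). The change of Hoxa7 in E5 passed the adjusted p without the third KO E3 library and in the fit of the 2 lines alone. Hoxa11, which acts with Hoxa10 in limb and uterus, had 11.1, 9.95 and 10.7 CPM in WT, 11.4, 10.5 and 13.9 CPM in KO E3 and 16.5, 13.6 and 15.1 CPM in KO E5. It was higher in clone E5 than in WT (log2 fold change 0.51 ± 0.13 SE, adjusted p = 0.0198) with no overlap of the libraries, and 43.6% of its exon bases are shared with Hoxa11os on the opposite strand. The counting tool and its strand setting were not given in the sources used here, so that reads of such pairs may not have been separated. Exon shares were read from a GENCODE annotation that is not the one behind the counts.

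In the Hoxb cluster clone E3 was higher than WT for 9 of 9 tested genes by the sign of the fold change, whereas clone E5 was higher for 5 and lower for 4. By the adjusted p, 5 were higher in E3 (55.6%, against 15.7% of all tested genes). The median log2 fold change in E3 was 0.57, against 0.01 over all tested genes. For Hoxb9 and Hoxb13 the sign in E3 turned in at least 1 alternative. Hoxb9 (ENSMUSG00000020875.10, chr11:96162283-96167421), which shapes the thoracic skeleton, differed most in clone E5. Its level was 3.1, 3.6 and 3.97 CPM in WT, 5.08, 2.83 and 3.83 CPM in KO E3 and 0.582, 0.911 and 0.999 CPM in KO E5. Every KO E5 library was below every WT and KO E3 library. Hoxb9 fell in E5 against WT (log2 fold change -2.09 ± 0.26 SE, adjusted p = 0.000321) and was lower in E5 than in E3 (log2 fold change -2.23 ± 0.26 SE, adjusted p = 0.000154), both in all 15 alternative analyses, and E3 did not differ from WT beyond the threshold (log2 fold change 0.14 ± 0.24 SE, adjusted p = 0.697).

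Hoxb8 (ENSMUSG00000056648.7, chr11:96172731-96176141), which acts in spinal cord and blood cell progenitors, moved most in clone E3. It had 2.48, 1.41 and 2.15 CPM in WT, 5.78, 3.97 and 8.62 CPM in KO E3 and 3.15, 3.67 and 4.35 CPM in KO E5. All KO libraries lay above the WT libraries. Hoxb8 rose in E3 (log2 fold change 1.60 ± 0.29 SE, adjusted p = 0.00253), and remained called without the third KO E3 library (log2 fold change 1.27, adjusted p = 0.00101). Its change in E5 did not pass with all libraries (log2 fold change 0.88 ± 0.30 SE, adjusted p = 0.0595), and the clones did not differ beyond the threshold (log2 fold change -0.72 ± 0.28 SE, adjusted p = 0.0773). The change in E5 passed the adjusted p in some alternatives, among them the fit without the third KO E3 library.

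Hoxb6 (ENSMUSG00000000690.6, chr11:96183302-96192395) and Hoxb5 (ENSMUSG00000038700.5, chr11:96194338-96196946), the latter active in lung branching and the enteric nervous system, are neighbors in the cluster. Hoxb6 had 1.12, 0.799 and 1.16 CPM in WT, 2.1, 1.5 and 2.77 CPM in KO E3 and 0.689, 0.651 and 0.721 CPM in KO E5. The 3 lines did not overlap, with KO E5 lowest and KO E3 highest. Hoxb6 rose in E3 (log2 fold change 1.04 ± 0.25 SE, adjusted p = 0.0102), which was not called without the third KO E3 library (log2 fold change 0.81, adjusted p = 0.0149) or without WT replicate 2 (log2 fold change 0.89, adjusted p = 0.0507), while E5 was below WT without passing (log2 fold change -0.58 ± 0.27 SE, adjusted p = 0.164). Between the clones Hoxb6 was lower in E5 (log2 fold change -1.62 ± 0.26 SE, adjusted p = 0.00104) in all 15 alternative analyses. Hoxb5 had 2.18, 1.51 and 1.5 CPM in WT, 2.52, 1.82 and 2.55 CPM in KO E3 and 0.517, 0.759 and 1.24 CPM in KO E5. Its KO E5 libraries lay below all others, with a fall against WT (log2 fold change -1.03 ± 0.31 SE, adjusted p = 0.0386) that kept its call in 8 of 15 alternatives, its adjusted p rising to 0.145 without WT replicate 1. Against E3 the difference was called in all 15 (log2 fold change -1.44 ± 0.31 SE, adjusted p = 0.00518).

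A long non-coding RNA, Hoxb5os (ENSMUSG00000085645.3, chr11:96181849-96197736), lies on the strand opposite Hoxb5 and Hoxb6 and shares 9.48% of the exon bases of Hoxb5 and 30.8% of those of Hoxb6. It had 21, 32 and 26 counts in WT, 112, 73 and 193 counts in KO E3 and 1, 0 and 1 count in KO E5. Hoxb5os was called higher in E3 than in WT (log2 fold change 2.28 ± 0.38 SE, adjusted p = 0.00151), also without the third KO E3 library (log2 fold change 1.79, adjusted p = 0.000335). With 2 counts in all of KO E5, the ratio of WT to KO E5 was 40.0 (exact 95% counting interval 10.7 to 336) and that of KO E3 to KO E5 was 194 (53.3 to 1608). For Hoxb5os, Hoxb5 and Hoxb6 alike, every KO E5 library lay below all libraries of the other lines, and the part of reads from the opposite strand in it was not tested. Gm53 (ENSMUSG00000078706.6, chr11:96141924-96160126), a long non-coding RNA upstream of Hoxb9 that shares no exon base with it, had 38, 56 and 36 counts in WT, 318, 260 and 231 counts in KO E3 and 0, 1 and 0 counts in KO E5. It was called higher in E3 than in WT (log2 fold change 2.65 ± 0.24 SE, adjusted p = 4.01e-05), and with 1 count in KO E5 the ratio of WT to KO E5 was 132 (exact 95% counting interval 23.2 to 5237). Within the Hoxb cluster the sharpest differences between the clones were therefore those of Gm53, Hoxb5os and Hoxb9.

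The remaining Hoxb genes were at moderate levels in every line. Hoxb7 had 4.37, 5.09 and 4.18 CPM in WT, 5.66, 6.21 and 8.36 CPM in KO E3 and 6.51, 6.48 and 7.16 CPM in KO E5. Its KO libraries were all above WT, and both clones passed the adjusted p with nearly the same change (log2 fold change 0.57 ± 0.16 SE, adjusted p = 0.0236 and log2 fold change 0.56 ± 0.16 SE, adjusted p = 0.0331). Hoxb4, known for expanding blood stem cells in culture, had 6.09, 5.3 and 6.18 CPM in WT, 9.04, 6.36 and 13.2 CPM in KO E3 and 8.17, 7.81 and 8.25 CPM in KO E5. It was higher in E3 (log2 fold change 0.70 ± 0.22 SE, adjusted p = 0.0346), at a log2 fold change of 0.39 and an adjusted p of 0.0448 without the third library. Hoxb3 had 5.83, 6.84 and 6.06 CPM in WT, 8.74, 7.56 and 7.15 CPM in KO E3 and 8.01, 8.5 and 7.9 CPM in KO E5. All KO libraries exceeded WT, yet neither clone passed with all libraries (log2 fold change 0.33 ± 0.12 SE, adjusted p = 0.0691 and log2 fold change 0.38 ± 0.12 SE, adjusted p = 0.0502), and 51.5% of its exon bases lie opposite Hoxb3os. Without the third KO E3 library Hoxb3 passed the adjusted p in both clones. Hoxb2, which acts in the hindbrain, had 6.45, 5.01 and 5.04 CPM in WT, 8.9, 6.51 and 11.2 CPM in KO E3 and 8.42, 8.78 and 9.12 CPM in KO E5. It was higher in both clones by the adjusted p (log2 fold change 0.69 ± 0.19 SE, adjusted p = 0.0201 and log2 fold change 0.67 ± 0.19 SE, adjusted p = 0.0299), with 29.7% of its exon bases opposite the same antisense RNA. Hoxb13, a gene of the prostate and the tail end of the embryo, was low in all lines (0.120 to 0.462 CPM), and its lines overlapped.

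The Hoxc cluster had the lowest levels and the largest fold changes. Hoxc6 (ENSMUSG00000001661.6, chr15:102906689-102920313), a gene of the thoracic region, was its highest member in WT, with 1.14, 1.3 and 1.39 CPM in WT, 0.66, 0.718 and 0.616 CPM in KO E3 and 0.129, 0.0651 and 0.111 CPM in KO E5. The counts were 57, 62 and 66 in WT, 33, 34 and 28 in KO E3 and 6, 3 and 6 in KO E5, so the lines formed steps without overlap. Hoxc6 fell in E5 against WT (log2 fold change -3.61 ± 0.28 SE, adjusted p = 1.09e-05) and was lower in E5 than in E3 (log2 fold change -2.67 ± 0.30 SE, adjusted p = 9.99e-05). In E3 it fell by the adjusted p but short of the fold threshold (log2 fold change -0.94 ± 0.22 SE, adjusted p = 0.00831).

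Hoxc4 (ENSMUSG00000075394.5, chr15:102927366-102945278), at the 3′ end of the cluster, had 23, 17 and 11 counts in WT, 0, 1 and 1 count in KO E3 and 1, 4 and 8 counts in KO E5. It was called lower in both clones (log2 fold change -4.41 ± 0.75 SE, adjusted p = 0.00156 and log2 fold change -1.97 ± 0.53 SE, adjusted p = 0.0246), and with 2 counts in all of KO E3 the ratio of WT to KO E3 was 25.2 (exact 95% counting interval 6.61 to 213). The E5 call held in 9 of 15 alternatives, with an adjusted p of up to 0.102 without WT replicate 1. Hoxc5 and Hoxc8 did not pass the filter on low counts and were tested only in some of the alternatives. Hoxc8, a thoracic gene, had 11, 3 and 3 counts in WT and none in any of the 6 KO libraries, so that WT was at least 5.59-fold higher than KO E3 and at least 5.74-fold higher than KO E5 (against 3 counts over the line). Of the 17 WT counts 11 came from WT replicate 1, and without that library the limits were at least 3.01-fold and 3.09-fold. With no filter on low counts, Hoxc8 passed as lower than WT in both clones, with adjusted p-values of 0.0167 in E3 and 0.0222 in E5. In DESeq2 it passed in E5 (adjusted p = 0.0458) and had no adjusted p in E3. Hoxc5 had 9, 10 and 1 counts in WT, 11, 7 and 14 counts in KO E3 and 1, 0 and 0 counts in KO E5, with a ratio of KO E3 to KO E5 of 32.9 (exact 95% counting interval 5.49 to 1337). It was lower in E5 than in E3 in the 9 alternatives that tested it (adjusted p from 0.00146 to 0.0339), and lower in E5 than in WT in 4 of these 9 (adjusted p from 0.00915 to 0.111 over the 9). Apart from DESeq2 and the fit with no filter, these were fits with 1 library left out. There the filter admitted Hoxc5 only while KO E3 replicates 1 and 3 were both kept. Its passing in those fits therefore adds no separate support for a difference between the clones. Hoxc9 to Hoxc13 had at most 3 counts in any library.

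In the Hoxd cluster the 5 genes that were on moved together between the clones. Hoxd10 (ENSMUSG00000050368.5, chr2:74522268-74525449), which acts in the limb and the lumbar spinal cord, had 14.7, 13.9 and 13.3 CPM in WT, 22.6, 20.03 and 26.9 CPM in KO E3 and 12.1, 11.4 and 11.1 CPM in KO E5. KO E3 was highest and KO E5 lowest, with no overlap between any lines. It was higher in E3 by the adjusted p (log2 fold change 0.73 ± 0.12 SE, adjusted p = 0.00137), not past the threshold in E5 (log2 fold change -0.28 ± 0.12 SE, adjusted p = 0.136), and called lower in E5 than in E3 (log2 fold change -1.01 ± 0.12 SE, adjusted p = 0.000169). This last fold change sits at the threshold, and without the third KO E3 library it was -0.88 (adjusted p = 1.27e-05). Without that library Hoxd10 was also lower in E5 than in WT by the adjusted p. Hoxd9 had 28.97, 29.3 and 28.8 CPM in WT, 40.4, 36.3 and 55.1 CPM in KO E3 and 20.3, 22.7 and 23.98 CPM in KO E5. Its lines did not overlap either, with E3 above WT (log2 fold change 0.60 ± 0.15 SE, adjusted p = 0.0109) and E5 below E3 (log2 fold change -0.98 ± 0.15 SE, adjusted p = 0.000683). Hoxd8, the most abundant Hox gene of the WT libraries by summed counts, had 30.8, 32.6 and 33.7 CPM in WT, 45.4, 43.4 and 58.4 CPM in KO E3 and 30.1, 31.6 and 27.8 CPM in KO E5. It was higher in E3 than in WT (log2 fold change 0.60 ± 0.12 SE, adjusted p = 0.00429) and lower in E5 than in E3 (log2 fold change -0.72 ± 0.12 SE, adjusted p = 0.00148), while E5 and WT overlapped.

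In the GENCODE annotation Hoxd4 and Hoxd3 share exons on the same strand, so the division of reads between them is uncertain. The shared part is 52.0% of the exon bases of Hoxd4 and 38.2% of those of Hoxd3. It includes bases shared with Gm28230, an annotated gene with no row of its own inside the cluster in the deposited counts. Hoxd4 had 8.63, 9.4 and 9.84 CPM in WT, 10.99, 9.8 and 9.3 CPM in KO E3 and 6.7, 6.31 and 6.73 CPM in KO E5. Every KO E5 library was below every WT and KO E3 library, and Hoxd4 fell in E5 by the adjusted p (log2 fold change -0.50 ± 0.11 SE, adjusted p = 0.0109) and against E3 (log2 fold change -0.61 ± 0.11 SE, adjusted p = 0.00247). Hoxd3 had 3.65, 3.43 and 2.89 CPM in WT, 4.26, 4.82 and 4.18 CPM in KO E3 and 1.94, 2.45 and 2.87 CPM in KO E5. It was lower in E5 than in E3 (log2 fold change -0.87 ± 0.17 SE, adjusted p = 0.00378), and neither clone passed against WT with all libraries (log2 fold change 0.41 ± 0.17 SE, adjusted p = 0.0937 and log2 fold change -0.45 ± 0.17 SE, adjusted p = 0.0933). Without the third KO E3 library Hoxd3 passed the adjusted p as lower in E5 than in WT. An antisense RNA of this region, Hoxd3os1, had 177, 154 and 141 counts in WT, 244, 247 and 329 counts in KO E3 and 77, 72 and 118 counts in KO E5, and was called lower in E5 than in E3 (log2 fold change -1.67 ± 0.20 SE, adjusted p = 0.000153). The 3′-most gene, Hoxd1, and the limb and genital genes Hoxd11, Hoxd12 and Hoxd13 had at most 2 counts in any library.

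Of the 21 non-coding rows that lie inside the clusters, 12 were tested. In E3 against WT 2 were called higher, in E5 against WT 2 lower, and between the clones 4 lower in E5 (Gm53, Hoxb5os, Hoxd3os1 and Gm14396). Over all tested genes, 5.43% were called higher in E3, 5.52% lower in E5 and 7.52% lower in E5 than in E3. No count was found in any library for Hotair, the antisense RNA of the Hoxc cluster.

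Differences outside the clusters were examined over the protein-coding genes within 1 Mb of each cluster. Of 106 such genes, 77 were tested, and the median log2 fold change was 0.02 in E3, -0.06 in E5 and -0.07 between the clones. In each clone against WT, 1 was called higher and 4 lower. Between the clones 5 were called higher in E5 and 4 lower, of which 4 and 2 were among the 35 tested near Hoxc. Over all tested genes, 5.43% were called higher and 4.39% lower in E3, 2.69% and 5.52% in E5, and 3.49% and 7.52% between the clones. The nearest tested genes on each side, Skap2 and Hibadh at Hoxa, Snx11 and Atp5mc1 at Hoxb, Calcoco1 and Smug1 at Hoxc, and Lnpk and Mtx2 at Hoxd, were not called in any comparison. By the adjusted p alone, Skap2 was lower in E5 than in E3 (log2 fold change -0.43 ± 0.12 SE, adjusted p = 0.0217) and Smug1 was higher (log2 fold change 0.40 ± 0.12 SE, adjusted p = 0.0266). The flanking genes of Hoxa spanned log2 fold changes of -0.43 to 0.19 and those of Hoxd -0.45 to 0.55 over the 3 comparisons. Near Hoxb, Ngfr, a neurotrophin receptor, had 28, 36 and 28 counts in WT, 74, 37 and 47 counts in KO E3 and 1, 4 and 6 counts in KO E5, and was called lower in E5 than in WT (log2 fold change -3.05 ± 0.46 SE, adjusted p = 0.000997). Copz2 and Nxph3 near Hoxb were called between the clones, and Nfe2l1 was called lower in E3 than in WT (log2 fold change -1.40 ± 0.13 SE, adjusted p = 4.8e-05). On the Hoxc side the keratin genes Krt8 and Krt18, Soat2, Itgb7, Amhr2 and Pde1b were called in at least 1 comparison, with Krt8 lower in E3 (log2 fold change -2.33 ± 0.13 SE, adjusted p = 2.31e-06) and higher in E5 than in E3 (log2 fold change 3.28 ± 0.13 SE, adjusted p = 7.24e-08). Soat2, an enzyme of cholesterol ester formation, was lower in both clones (log2 fold change -4.84 ± 0.38 SE, adjusted p = 1.92e-05 and log2 fold change -2.04 ± 0.31 SE, adjusted p = 0.00106).

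**Figure D4:**
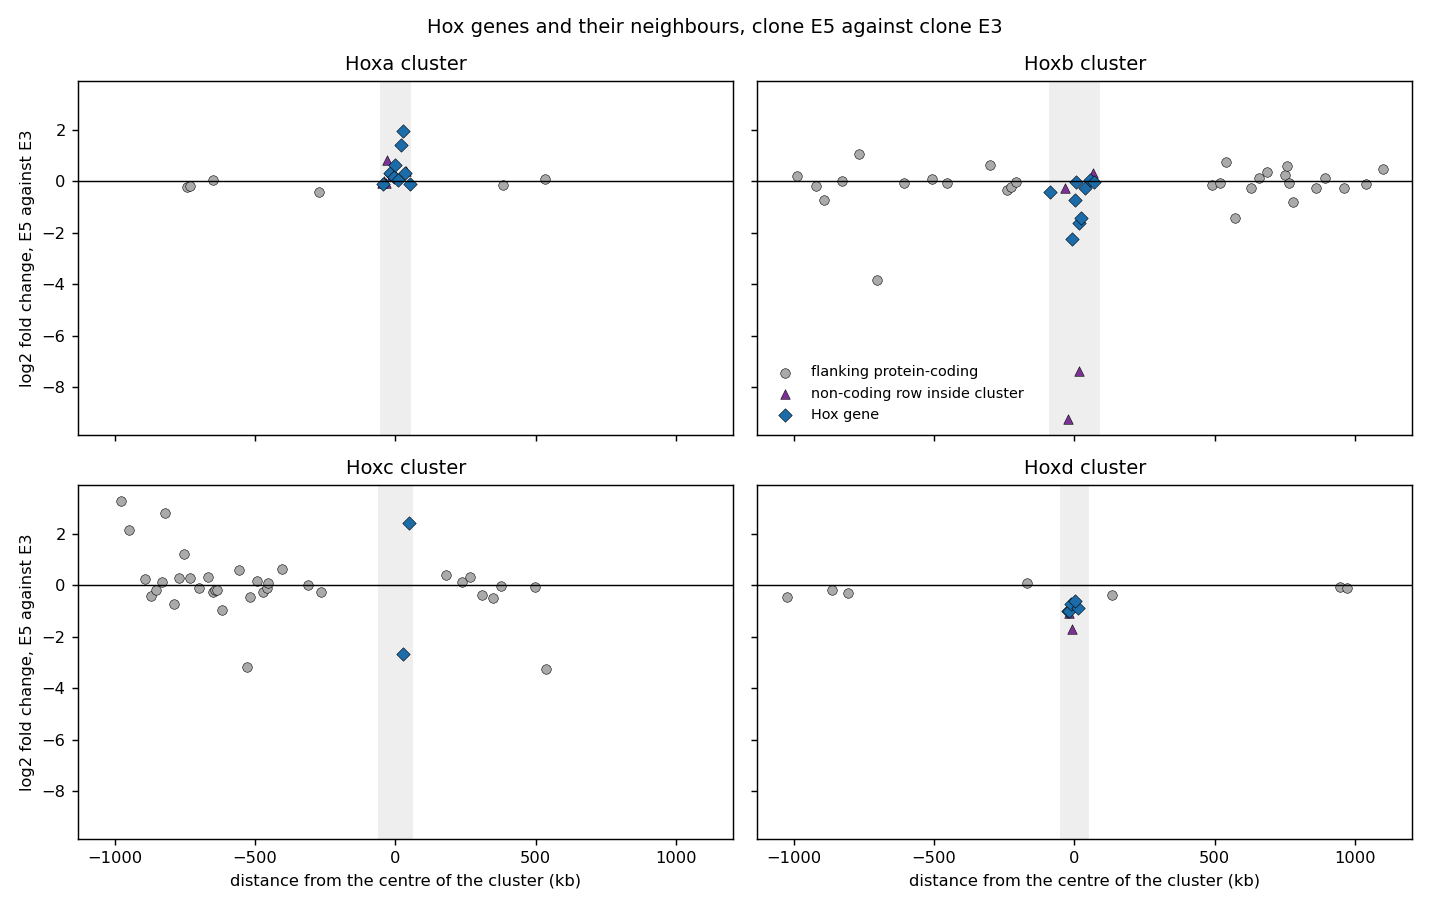
Log2 fold change of clone E5 against clone E3 for tested Hox genes (diamonds), non-coding rows inside the clusters (triangles) and protein-coding genes within 1 Mb (circles), against the distance in kb of the middle of each gene from the centre of the cluster (shaded). The Hoxd genes lie between -0.61 and -1.01. The flanking genes lie between -0.43 and 0.10 at Hoxa and between -0.45 and 0.10 at Hoxd. The lowest points of the Hoxb panel are the non-coding rows Gm53 and Hoxb5os.

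The cofactors and regulators of Hox genes were read from the same fit. Of 9 TALE cofactors, all tested, 7 were higher in E3 than in WT by the adjusted p, of which only Pbx4 was called, where 15.7% of all genes were higher. The median log2 fold change of the list was 0.49 in E3, -0.0055 in E5 and -0.43 between the clones. Pknox2, which encodes the cofactor PREP2, had 137, 154 and 136 counts in WT, 276, 256 and 162 counts in KO E3 and none in any KO E5 library, so that WT was at least 144-fold and KO E3 at least 237-fold higher than KO E5 (against 3 counts over the line). For the other 8 cofactors, the PBX and MEIS genes and Pknox1, every library of every line had counts.

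Of 43 tested Polycomb and trithorax genes, 1 was called higher and 1 lower in E3 (2.33% each, where 5.43% and 4.39% of all tested genes were). By the adjusted p alone, 3 were higher and 5 lower in E3 (6.98% and 11.6%, against 15.7% and 14.7%). In E5, 3 were higher and 3 lower (6.98% each, against 8.96% and 11.7%). Between the clones, 8 were higher and 6 lower (18.6% and 14.0%, against 14.7% and 17.2%). Of 11 tested genes of Polycomb repressive complex 2, 1 was called higher in E3, Phf1 (log2 fold change 1.00 ± 0.17 SE, adjusted p = 0.00162), and without the third KO E3 library its log2 fold change was 0.78. The 20 genes of Polycomb repressive complex 1 had fitted log2 fold changes between -0.61 and 0.85 over the 3 comparisons. Among 12 trithorax and H3K27 demethylase genes, Kdm6b, an enzyme that removes the Polycomb mark, was called lower in E3 (log2 fold change -1.02 ± 0.23 SE, adjusted p = 0.00782), at -0.78 without the third library.

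Retinoic acid and the CDX proteins are known activators of Hox genes in the embryo. Cdx2 had 375, 335 and 347 counts in WT, 11, 13 and 21 counts in KO E3 and 525, 537 and 576 counts in KO E5. Its lines did not overlap: Cdx2 fell in E3 (log2 fold change -4.52 ± 0.21 SE, adjusted p = 8.21e-07) and was higher in E5 by the adjusted p (log2 fold change 0.62 ± 0.15 SE, adjusted p = 0.016). Hoxa10 had the same order of lines, while Hoxb6, Hoxd3, Hoxd9 and Hoxd10 had the opposite order, also without overlap. A link between Cdx2 and any of them was not tested. Crabp1, a retinoic acid binding protein, was called lower in both clones (log2 fold change -3.67 ± 0.29 SE, adjusted p = 1.95e-05 and log2 fold change -1.20 ± 0.24 SE, adjusted p = 0.00555), and Dhrs3, which lowers retinaldehyde, was called higher in E3 (log2 fold change 1.37 ± 0.33 SE, adjusted p = 0.0105). Without the third KO E3 library the log2 fold changes in E3 were -4.22 for Crabp1 and 1.23 for Dhrs3. Of the 14 tested genes of this list 2 were called higher and 3 lower in E3 (14.3% and 21.4%, against 5.43% and 4.39% of all tested genes). In E5, 3 were called lower (21.4% against 5.52%), and between the clones 2 were called higher and 4 lower (14.3% and 28.6%, against 3.49% and 7.52%).

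Of 17 tested transcription factors of position and mesenchyme outside the Hox clusters, 3 were called higher and 2 lower in E3 (17.6% and 11.8%, against 5.43% and 4.39% of all tested genes). In E5, 3 were called higher and 3 lower (17.6% each, against 2.69% and 5.52%). Between the clones, 2 were called higher and 3 lower (11.8% and 17.6%, against 3.49% and 7.52%). Prrx2, a homeobox gene of limb and face mesenchyme, rose in both clones (log2 fold change 2.23 ± 0.20 SE, adjusted p = 4.19e-05 and log2 fold change 2.19 ± 0.20 SE, adjusted p = 3.43e-05). Tbx1, a T-box gene of the pharynx, fell in E5 (log2 fold change -4.39 ± 0.31 SE, adjusted p = 5.94e-06) with 7, 16 and 7 counts where the other libraries had 171 to 260. Foxf1, a regulator of lung mesenchyme, rose in E3 (log2 fold change 1.02 ± 0.12 SE, adjusted p = 0.000163), and the related gene Foxf2 was called higher in E5 than in E3 (log2 fold change 1.17 ± 0.089 SE, adjusted p = 6.55e-06). Whether any of these genes bears on the Hox levels was not tested.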

How the data were processed

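RNA-seq counts were analysed from 9 LLC libraries, 3 each of WT, KO E3 and KO E5. The authors prepared polyA-selected directional libraries, sequenced them in paired-end mode, used FastQC for quality control, Trimmomatic for trimming and STAR for alignment to GRCm39, and deposited a table of raw gene counts, neither normalized nor pooled. How reads were assigned to genes (the tool, the annotation version and the use of strand) is not given in the sources used here. The authors compared lines with DESeq2.

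Differential expression was computed from the deposited counts with edgeR 4.0.16 in R 4.3.3 (quasi-likelihood test, TMM, filterByExpr with a minimum count of 10 and a minimum total of 15), which kept 14593 of 50813 rows. The 3 lines were fitted together. Called genes had an FDR under 0.05 (Benjamini-Hochberg over all genes tested) and an absolute log2 fold change above 1. The standard error was taken as the size of the log2 fold change divided by the root of its F statistic. On counts simulated from these libraries, with 200 genes changed by 2 on the log2 scale among 14593, the same fit called 182 for E3 and 186 for E5 against WT. Smaller changes, such as most of the Hox changes above, were not simulated, so this recovery does not apply to them. DESeq2 1.42.0, other size factors, other filters, 2-line fits, a replicate block and each library left out were tried as alternatives. Total counts of 44257404 to 55095219 make counting error small above a few CPM.

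The members, gene lists and tests were chosen with earlier results of these data known. A few items, some sequences among them, are not reported here. Other members on in at least 1 line are named with all values, called members with fold change, standard error and adjusted p. From other lists, called genes with an average log2 CPM above 1 could be named, at most 4 a list by absolute fold change, and from flanking genes those called and the nearest tested. Ngfr, Nxph3 and Amhr2 fall below that average and are named as flanking genes, and Pbx4 is named as the only cofactor called higher in E3, chosen after its values were seen. Sequences, exon lengths and exon overlaps were read from GRCm39 with the GENCODE annotation. Its gene models differ in places from those behind the counts. For example, it gives Hoxb9 and Hoxb5os shared exon bases, although their deposited positions do not overlap.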

Additional observations from a re-analysis of the deposited data

Results flagged for a closer look

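In clone E5 against clone E3, 11 Hox genes differed by edgeR's quasi-likelihood test of that difference itself (adjusted p under 0.05), so that their change against WT was not the same in the clones. Of the tested members 7.41% were higher and 33.3% lower by this rule, against 14.7% and 17.2% of all tested genes. The log2 difference E5 minus E3 was 1.43 for Hoxa9 and 1.97 for Hoxa10. In the Hoxb cluster it was -2.23 for Hoxb9, -1.62 for Hoxb6 and -1.44 for Hoxb5. Hoxc6 differed by -2.67. All 5 tested Hoxd genes were among them, with -1.01 for Hoxd10, -0.98 for Hoxd9, -0.72 for Hoxd8, -0.87 for Hoxd3 and -0.61 for Hoxd4. Every KO E5 library lay on the same side of every KO E3 library for each of these 11 genes. They were selected by their difference in the same libraries, so this separation adds no support. Groups of 3 libraries are too small for a test of single outlying libraries.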

How the results depend on the processing

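With the adjusted p alone, 12 (E3 against WT), 11 (E5 against WT) and 11 (E5 against E3) Hox genes passed, against 4, 4 and 7 with the fold threshold. For E5 against WT, 2 were called when every library had to hold 10 counts or more, where Hoxc4 and Hoxc6 are no longer tested, and 2 with the replicate block. Leaving out 1 library gave 3 to 5 called genes for E3 against WT, 2 to 5 for E5 against WT and 6 to 9 for E5 against E3, and 23 to 24, 23 to 24 and 22 to 24 genes on in WT, KO E3 and KO E5. Thresholds of 1 and 0.25 CPM gave 22 and 25 genes on in WT, 21 and 23 in KO E3 and 19 and 24 in KO E5. Among the 19 members that passed the adjusted p in at least 1 comparison, a change that had not passed turned its sign for Hoxb9 in E3 without KO E3 replicate 1 (-0.10, range without single libraries -0.10 to 0.32), and between the clones for Hoxb7 (0.0052 in DESeq2, 0.0050 with the replicate block, -0.12 to 0.19 without single libraries), Hoxb4 (-0.46 to 0.076 without single libraries) and Hoxb2 (0.0077 with the replicate block, -0.19 to 0.20 without single libraries), and the cause was not tested. Of the members that passed in no comparison, the sign also turned for Hoxa6 in E3 (-0.34 to 0.45 over the alternatives), Hoxa7 between the clones (-0.043 to 0.28), Hoxb13 in E3 (-0.17 to 0.64) and E5 (-0.45 to 0.16), and Hoxa13 in E3 (-0.28 to 0.66), E5 (-0.18 to 0.32) and between the clones (-0.54 to 0.40). No change that had passed the adjusted p turned its sign in the alternatives tried. Same-numbered libraries did not deviate together (correlations -0.172 to 0.0472), so the block has no pairing behind it. With 2 libraries left in a line, the spread was pooled over all lines. Without a filter on low counts 33 members were tested, Hoxc5 and Hoxc8 among them, and the other 6 had no count in any library.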

Other observations

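Summed by paralog group, the Hox transcripts of group 9 were at 32.5, 33.4 and 33.1 CPM in WT, 45.7, 39.5 and 59.2 CPM in KO E3 and 21.8, 24.0 and 25.5 CPM in KO E5, and the lines did not overlap. Group 8 was at 33.5 to 35.9 CPM in WT, 47.3 to 67.0 CPM in KO E3 and 32.1 to 35.3 CPM in KO E5. Group 10 hardly separated KO E3 from KO E5 (22.8 to 31.0 and 24.4 to 24.9 CPM, against 20.2 to 21.8 CPM in WT), since Hoxa10 was higher in KO E5 and Hoxd10 in KO E3. Group 12, with members in the Hoxc and Hoxd clusters, had no count in any library.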
